A study of Homo sapiens with 6 samples.

Results

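TXNIP, the alpha-arrestins ARRDC1 to ARRDC4 and the glucose-responsive transcription factors MLXIP (MondoA) and MLXIPL (ChREBP) were taken by gene symbol from the authors' table of all genes. All 7 named genes were found among its 16953 genes. The table compares RNA-seq libraries of H1048, a human small cell lung cancer line labelled wild type, after 48 h with either the macrolide antibiotic component isovalerylspiramycin I (ISP-I, 10 µM, 3 samples) or its solvent DMSO (3 samples). All samples came from this single line, and replicates are described as biological.

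In the table, libraries lettered D to F are compared with those lettered A to C, and no label used here ties a letter to a sample or to a treatment. Every difference below is therefore that of D to F over A to C, without saying which set received ISP-I. Values per library were not used, so levels, depth and standard deviations are not given; the authors' log2 fold changes come without standard errors. Of 7 markers of the tuft cell-like subtype to which this line belongs, the authors' deposited table gives all 7 an adjusted p. Of these, 4, including POU2F3, were lower in D to F at an adjusted p under 0.05. Such calls were common, with 29.7% of all genes with an adjusted p higher and 27.9% lower. Of 3 neuroendocrine markers with an adjusted p, INSM1 (3.51-fold) and SYP (5.68-fold) were higher and 0 lower. Of 3 fibroblast markers 1 was higher (FAP) and 2 lower (COL1A1 and POSTN), of 3 leukocyte markers 1 was higher (LYZ), and CLDN5, the endothelial marker in the table, did not pass; their part in the results below was not tested.

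Alpha-arrestins are adaptor proteins that link membrane cargo to ubiquitin ligases of the NEDD4 family, which bind PPxY motifs in the arrestin tails. TXNIP, the best known of them, also binds and inhibits thioredoxin and lowers glucose uptake. MondoA and ChREBP pair with MLX and, when glucose phosphates accumulate, bind carbohydrate response elements (ChoREs), pairs of E-box-like sequences 5 bases apart. TXNIP and ARRDC4 are classical targets of MondoA, which ties both of these arrestin genes to the same nutrient signal.

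The promoters of the 3 alpha-arrestins on which the description turns are shown because that is where such elements are known to act. They are RefSeq windows on GRCh38.p14 from 250 bases before to 50 bases after an annotated start, on the strand of the gene. The TXNIP window is chr1:145996530-145996829 (minus strand), the ARRDC4 window chr15:97960453-97960752 (plus strand) and the ARRDC3 window chr5:91383268-91383567 (minus strand). Capitals mark a ChoRE-like pair (CACGNG, any 5 bases, then CACGNG again), an E-box (CACGTG) or a CCAAT box (CCAAT, read as ATTGG on the other strand).
TXNIP: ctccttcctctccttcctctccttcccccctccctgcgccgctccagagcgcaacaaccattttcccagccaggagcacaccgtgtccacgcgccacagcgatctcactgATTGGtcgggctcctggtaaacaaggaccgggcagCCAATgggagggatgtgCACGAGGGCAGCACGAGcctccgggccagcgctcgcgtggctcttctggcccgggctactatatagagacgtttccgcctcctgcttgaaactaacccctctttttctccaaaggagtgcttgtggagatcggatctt
ARRDC4: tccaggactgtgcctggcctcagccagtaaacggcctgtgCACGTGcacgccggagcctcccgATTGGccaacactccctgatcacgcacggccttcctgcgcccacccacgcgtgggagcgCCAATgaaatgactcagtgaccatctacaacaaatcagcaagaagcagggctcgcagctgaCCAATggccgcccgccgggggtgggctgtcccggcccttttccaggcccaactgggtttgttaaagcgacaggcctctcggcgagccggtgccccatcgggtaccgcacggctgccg
ARRDC3: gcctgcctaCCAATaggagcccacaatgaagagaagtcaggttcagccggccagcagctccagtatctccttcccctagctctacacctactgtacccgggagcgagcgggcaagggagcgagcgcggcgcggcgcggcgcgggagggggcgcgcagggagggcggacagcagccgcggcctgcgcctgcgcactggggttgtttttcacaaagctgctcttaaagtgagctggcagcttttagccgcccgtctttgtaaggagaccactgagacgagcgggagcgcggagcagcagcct

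The TXNIP window held the pair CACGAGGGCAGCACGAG, whose first base lay 88 bases before the start, with CCAAT boxes beginning 105 and 140 bases before it. The ARRDC4 window held no such pair. It had the palindromic E-box CACGTG 210 bases before the start and CCAAT boxes at 187, 128 and 67 bases. The ARRDC3 window had neither pair nor E-box and a CCAAT box 241 bases before the start.

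Most of the set was higher in libraries D to F. At an adjusted p under 0.05, 5 of the 7 genes were higher (ARRDC4, ARRDC3, TXNIP, ARRDC2 and MLXIP), 0 were lower, and ARRDC1 and MLXIPL did not pass, in the authors' deposited table. Of the 15976 genes with an adjusted p, 29.7% were higher and 27.9% lower by the same rule, so that a call in itself was common. With a change of at least 2-fold required as well, ARRDC4 and ARRDC3 were higher, 2 of 7 genes, against 12.8% of the genes higher and 11.3% lower. The median log2 fold change of the 7 genes was 0.70, against 0.06 over all genes. The genes were chosen with earlier results of these data known, and no test over the set was made.

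**Figure D1:**
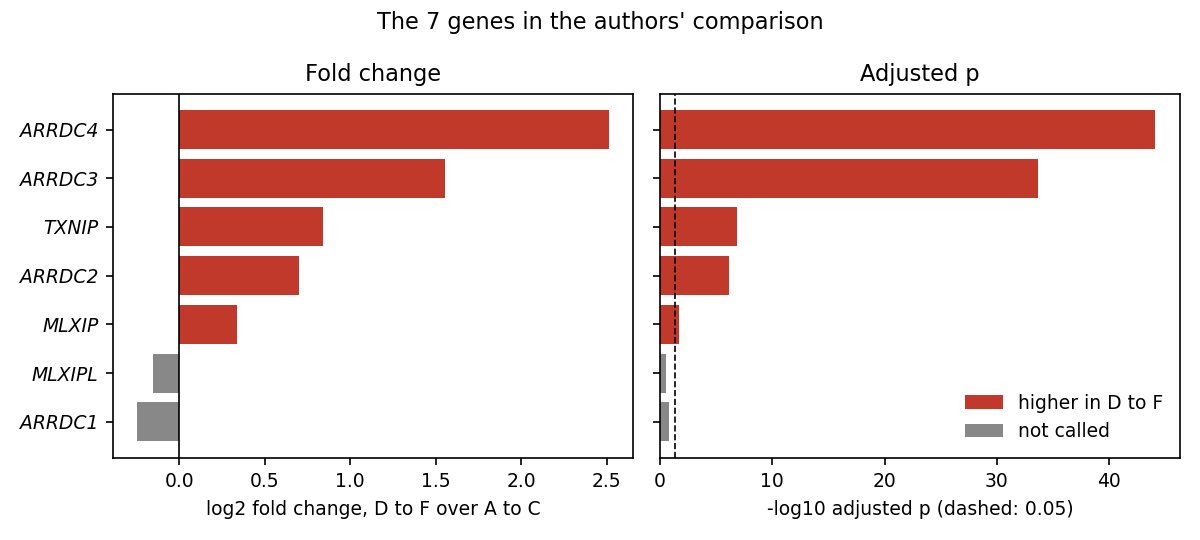
Log2 fold change (left) and -log10 adjusted p (right) of the 7 genes in the authors' comparison of libraries D to F with A to C; red bars are genes higher in D to F at an adjusted p under 0.05 (dashed line) and grey bars genes that did not pass. ARRDC4 and ARRDC3 stand apart from the rest on both scales, and MLXIP lies just past the threshold.

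ARRDC4 had the largest difference of the set. This alpha-arrestin resembles TXNIP in lowering glucose uptake and serves as an adaptor for NEDD4-type ligases. It was 5.71-fold higher in D to F, with a log2 fold change of 2.51 and an adjusted p of 7.80e-45 in the authors' deposited table. Only 5.79% of the table's genes had a higher log2 fold change. The gene lies on the plus strand of chromosome 15, 97960698 to 97973838 in GENCODE 29 (GRCh38), where a single transcript is annotated and no other gene overlaps it.

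ARRDC3, an adaptor that directs integrin beta4 toward degradation, followed. It was 2.93-fold higher, with a log2 fold change of 1.55 and an adjusted p of 2.16e-34 in the authors' deposited table. A higher log2 fold change was listed for 12.1% of genes. ARRDC3 spans 91368724 to 91383359 on the minus strand of chromosome 5, and the opposite-strand gene ARRDC3-AS1 shares 145 of its exonic bases (2.94%). ARRDC4 and ARRDC3 were the 2 genes of the set in the authors' shorter table of 4021 genes, which takes an unadjusted p under 0.05 and a change of at least 2-fold and holds 23.7% of all genes.

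TXNIP was higher by a smaller step. In the authors' deposited table its log2 fold change was 0.84 (1.79-fold) with an adjusted p of 1.31e-07, and 24.7% of genes had a higher value. TXNIP lies on the minus strand of chromosome 1 (145992435 to 145996600), and 0 of 3708 stretches of 50 bases in its annotated transcripts occur in transcripts of another gene. Its fold change was below that of ARRDC4. The difference between these 2 fold changes was not tested.

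ARRDC2, a further alpha-arrestin on chromosome 19 (18001132 to 18014102, plus strand), was close to TXNIP in size. It was 1.62-fold higher, a log2 fold change of 0.70 with an adjusted p of 7.65e-07 in the authors' deposited table. The gene model AC020904.3 lies on the opposite strand and shares 442 exonic bases (9.53%) with ARRDC2. Whether the authors counted by strand is not stated in the sources used, so whether reads in that stretch were told apart is not known.

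ARRDC1 was the alpha-arrestin of the set that did not pass. It sits at the plasma membrane and recruits the ESCRT protein TSG101 to bud off small vesicles. Its log2 fold change was -0.25 (adjusted p = 0.157, authors' deposited table), and 63.2% of genes had a higher value. ARRDC1 lies on the plus strand of chromosome 9 (137605654 to 137615360) and shares 183 exonic bases (4.79%) with AL590627.2 on the same strand and 29 with ARRDC1-AS1 on the other. Of the 5 alpha-arrestins in the set, 4 were thus higher, and their log2 fold changes ran from -0.25 to 2.51.

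The glucose sensors themselves differed less than most of the arrestins. MLXIP, on chromosome 12 (122078722 to 122147347, plus strand), was 1.26-fold higher, with a log2 fold change of 0.34 and an adjusted p of 0.0225 in the authors' deposited table. This call ended at an adjusted p under 0.01. Its paralog MLXIPL, on chromosome 7 (73593194 to 73624543, minus strand) and best known as the lipogenic factor of liver, did not pass, at a log2 fold change of -0.16 (adjusted p = 0.308, authors' deposited table). MLX, the obligate partner of both, was 1.41-fold higher (log2 fold change 0.49, adjusted p = 2.03e-06, authors' deposited table).

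**Figure D2:**
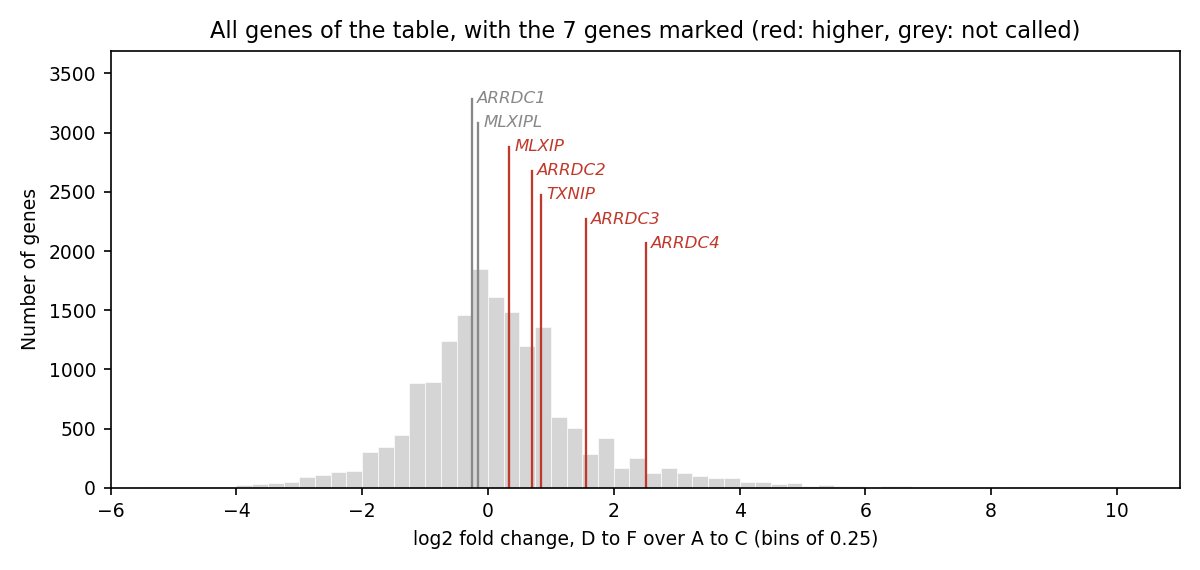
Histogram of the log2 fold change of all 16953 genes in the authors' table (grey bars, number of genes per bin), with a line at each of the 7 genes (red for higher in D to F, grey for not passing). MLXIPL, ARRDC1 and MLXIP lie in the crowded middle of the distribution, and ARRDC4 lies in its upper tail.

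MLX also pairs with repressors of the MAX network, and these were divided. In the authors' deposited table MXD1 was higher (log2 fold change 1.69, adjusted p = 1.05e-46), as was MNT (0.40, adjusted p = 0.00196). MXD4 was 5.24-fold lower (log2 fold change -2.39, adjusted p = 1.01e-92, authors' deposited table). The related MXD3 (-1.87) and MXI1 (-0.98), which pair with MAX, were lower too in the authors' deposited table.

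The partners of TXNIP also differed in direction. Cytosolic thioredoxin TXN, its binding partner, did not pass (log2 fold change 0.08, adjusted p = 0.603, authors' deposited table), while mitochondrial thioredoxin TXN2 was lower (-0.47). NLRP3, the inflammasome sensor to which TXNIP can bind, was listed 33.8-fold higher (adjusted p = 3.09e-07, authors' deposited table). DDIT4, the mTORC1 inhibitor REDD1 that forms a complex with TXNIP, was 5.89-fold lower. PRKAA1 (0.41) and PRKAA2 (0.59), the catalytic subunits of AMPK, a kinase that marks TXNIP for degradation, were both higher in the authors' deposited table. The whole list of TXNIP and MLX partners also held MXD3 and MXI1, which pair with MAX. Of its 12 genes, 6 were higher and 5 lower (50% and 41.7%, against 29.7% and 27.9% of all genes). Its median log2 fold change was 0.24.

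Genes of other proteins with an arrestin fold were divided. The beta-arrestins, which bind activated G protein-coupled receptors, were lower in the authors' deposited table, ARRB1 at -1.39 (adjusted p = 0.00813) and ARRB2 at -0.23 (adjusted p = 0.0428). The retromer subunit VPS26B was 2.81-fold lower, whereas its paralogs VPS26A (0.32) and VPS26C (0.31) were higher in the authors' deposited table. ARRDC5, the remaining alpha-arrestin, had a log2 fold change of 2.36 that did not pass (adjusted p = 0.56, authors' deposited table). Of these 6 genes, 2 were higher and 3 lower (33.3% and 50%, against 29.7% and 27.9% of all genes), with a median of 0.04.

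Among the ubiquitin ligases that alpha-arrestins recruit, ITCH, the ligase that degrades TXNIP, had the smallest adjusted p. It was 2.06-fold higher in D to F (log2 fold change 1.05, adjusted p = 2.52e-28, authors' deposited table). NEDD4 was 1.72-fold higher and its adaptor NDFIP2 1.32-fold higher, while WWP2 was lower (log2 fold change -0.59, authors' deposited table). The paralogs of NEDD4 and NDFIP2 went the other way in the authors' deposited table. NEDD4L (log2 fold change -0.27, adjusted p = 0.00624) and NDFIP1 (-0.23, adjusted p = 0.0435) were lower. TSG101, the partner of ARRDC1, was 1.37-fold higher. Of 14 ligases, adaptors and ESCRT genes 4 were higher and 3 lower (28.6% and 21.4%), near the shares over all genes.

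Membrane proteins reported as cargo of these adaptors were mostly lower. The authors' deposited table lists EGFR at -1.27 (adjusted p = 4.88e-28), NOTCH1 at -1.09, the insulin receptor INSR at -0.81, the iron transporter SLC11A2 at -0.57 and ITGB4 at -0.41, all lower in D to F. Thus 5 of 6 genes were lower and 0 higher, where 27.9% of all genes were lower, with a median of -0.69. These are RNA differences, and arrestins act on the proteins.

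**Figure D3:**
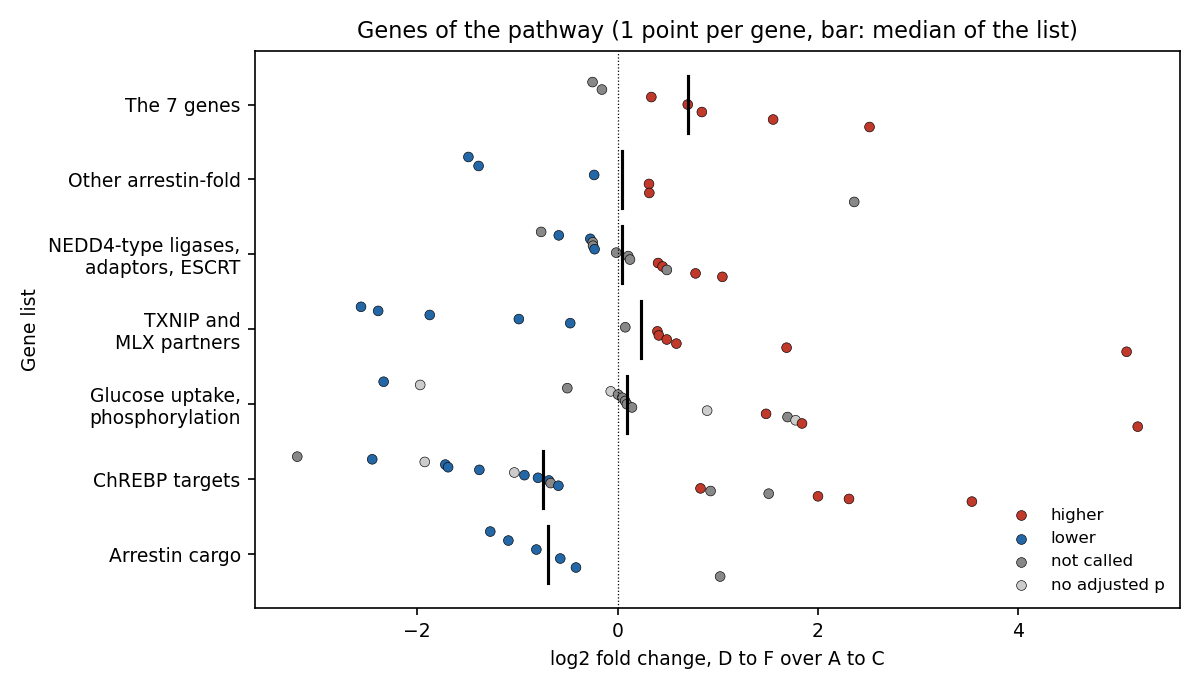
Log2 fold change of each gene (points) in the set and in 6 lists of related genes, with the median of each list as a black bar; red is higher in D to F, blue lower, dark grey not passing and light grey without an adjusted p. The medians of the ChREBP targets (-0.74) and the arrestin cargo (-0.69) lie below 0, and that of the 7 genes (0.70) lies above.

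Glucose uptake genes were examined because TXNIP and ARRDC4 restrain glucose transporters at the membrane and because hexokinases make the glucose 6-phosphate that MondoA senses. SLC2A1, the transporter GLUT1, was 2.79-fold higher (adjusted p = 1.69e-28, authors' deposited table), and SLC2A3 (GLUT3) was 3.58-fold higher (adjusted p = 0.0391). SLC2A12 was 5.04-fold lower. The main hexokinases HK1 (log2 fold change 0.05) and HK2 (0.08) did not pass, whereas HKDC1 was listed 36.5-fold higher (adjusted p = 1.07e-07, authors' deposited table). Of the 11 genes on this list with an adjusted p, 3 were higher and 1 lower (27.3% and 9.09%, against 29.7% and 27.9% of all genes); a further 4, among them SLC2A2, had none.

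Known ChREBP targets other than the arrestins were divided. Of 18 such genes in the table, 16 with an adjusted p, 4 were higher and 8 lower (25.0% and 50% of the 16, against 29.7% and 27.9% of all genes). The median log2 fold change was -0.74 over all 18 genes and -0.68 over the 16. KLF10 (11.6-fold), the lipid transfer gene MTTP (4.96-fold), the glycerol phosphate enzyme GPD1 (log2 fold change 2.00, authors' deposited table) and PFKFB3 (1.77-fold), which makes an activator of glycolysis, were higher. The genes lower included the fatty acid synthesis enzymes SCD (5.46-fold), ACLY (2.60-fold), ACACB (3.23-fold), FASN (1.90-fold) and ELOVL6 (1.51-fold), together with the fructose pathway kinases TKFC (3.29-fold) and KHK (1.73-fold). PKLR, the classical ChREBP target of liver, had no adjusted p.

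The motif search was extended to all 10 promoter windows of the set, on both strands. A ChoRE-like pair was present in 20 of 35116 RefSeq windows (0.057%), and TXNIP was the gene of the set that had one. The pattern repeats CACGNG in the same orientation, so inverted pairs that do not match it were not counted. The strict form, with CACGTG at both ends of the 5 free bases, occurred in 2 windows, neither of them in the set. An E-box was present in 7.26% of windows and, in the set, in that of ARRDC4 alone, while the MLX window also had one, 50 bases before the start. CCAAT boxes were found in 6 of the 10 windows, 1 for each gene but MLXIPL, and in 34.6% of all windows. The forkhead sequence TGTTTAC was found in windows of TXNIP (124 bases before the start) and of ARRDC3 (29 bases before a second start), and in 3.42% of all windows.

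**Figure D4:**
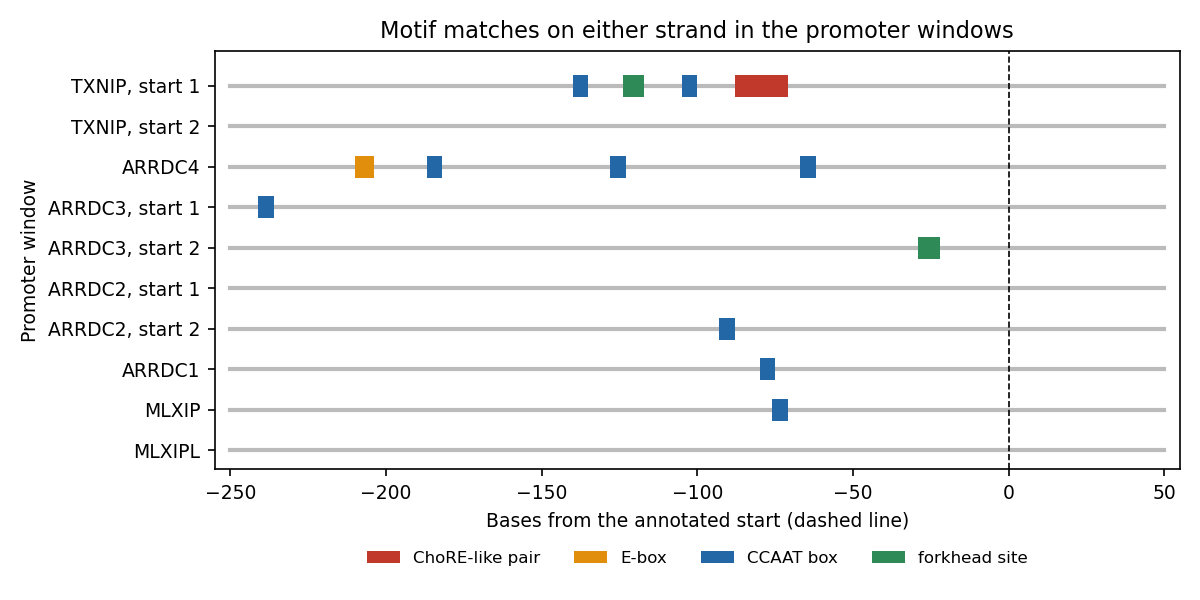
Position of each motif match, in bases from the annotated start (dashed line), in the 10 RefSeq promoter windows of the 7 genes; each row is a window and colours name the motif. TXNIP has the only ChoRE-like pair, 88 bases before its first start, and ARRDC4 has the only E-box, 210 bases before its start.

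The windows reach 250 bases upstream, and a missing match says only that these letters are not in this window. Among the genes of the table, 18 had a window with a ChoRE-like pair. Of these, 7 were higher in D to F (38.9%, against 29.7% of all genes) and 1 was lower (5.56%, against 27.9%). Among these 7, TXNIP came behind KCTD5 (log2 fold change 1.20) and PPP2R3C (0.93), and ahead of GFPT1 (0.67), the first enzyme of hexosamine synthesis, in the authors' deposited table. Genes with an E-box in the window were higher in 32.7% of 1442 cases and lower in 29.5%, near the 29.7% and 27.9% of all genes. The shares of all genes also cover genes without a promoter window.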

How the data were processed

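RNA was extracted with TRIzol, and libraries were made with a NEBNext Ultra kit and sequenced as paired ends, per the labels' protocols. The submitters' processing notes name DESeq2, HTSeq, STAR and Trimmomatic, and the build hg38; the sources used state neither versions and settings, nor the annotation, nor whether reads were counted by strand. The log2 fold changes, p-values and adjusted p-values are those the authors deposited, in 2 tables with DESeq2's column names per the file headers; whether fold changes were shrunken is not given. The table's name puts D to F first, so a positive value is taken as higher there.

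The rule for this set also asks for the values of libraries A to F. No label ties these 36 columns to samples, so they were not used; the planned edgeR test on counts was therefore replaced by the authors' comparison, and no depth is given. If the samples of a group were not separate cultures, the p-values measure only technical spread.

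An adjusted p of exactly 1 (977 genes) was treated as none; the other 15976 equal a Benjamini-Hochberg adjustment over those genes. A gene was called at an adjusted p under 0.05. Fold values are 2 to the power of the authors' log2 fold change. The members and lists were chosen with earlier results of these data known; list genes were named by the rule of the 4 smallest p per list plus MLX, ARRDC5, TXN, SLC2A1, SLC2A3 and HK2, and further list members after their values were seen. The CCAAT and forkhead motifs were added after the windows were seen. Of the 72 list genes 71 were in the table; some are counted but not reported here by name. RefSeq promoter windows matched 12963 table symbols and all 7 genes by symbol; overlaps and shared stretches come from GENCODE 29. Patterns across libraries and protein sequences were not analysed here. Alternatives were another threshold, adjustment, fold minimum, centring and motif. The adjustment and the motif search were tested on simulated data. The work used matplotlib 3.10.9, scipy 1.17.1, numpy 2.4.6 and pandas 2.3.3 under Python 3.11.15.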

Additional observations from a re-analysis of the deposited data

How the results depend on the processing

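With a change of at least 2-fold required as well, 2 of the 7 genes remained higher (ARRDC4 and ARRDC3), TXNIP, ARRDC2 and MLXIP no longer passing. Of the 65 list genes with an adjusted p, 9 were then higher and 12 lower, in place of 19 and 25 (29.2% and 38.5%). Of the 15976 genes of the table with an adjusted p, 2052 were higher and 1804 lower (12.8% and 11.3%), in place of 4742 and 4453 (29.7% and 27.9%). At an adjusted p under 0.01, 4 of the 7 genes were higher, MLXIP being lost. Of the 65 list genes, 18 were higher and 22 lower by that rule, SLC2A3 and ARRB2 being among the calls lost. Of the 15976 genes of the table with an adjusted p, 4074 were higher and 3870 lower, so such calls stayed common. Adjustment over every gene in the table (MLXIP adjusted p = 0.0238) and centring on the median of all genes (0.06) left all 7 calls and directions as they were. With the strict motif the number of genes of the set with a ChoRE pair was 0 in place of 1. No paired analysis was possible because no label ties the library columns to samples and replicate numbers. For the same reason leaving out replicates, another normalization and a filter on low counts were not run. Without standard errors or levels, differences between the 7 genes were not tested, and the number of reads behind large folds such as those of NLRP3 and HKDC1 was not looked at.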
